A study of Mus musculus with 12 samples.

Results

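The STAT transcription factors Stat2, Stat3, Stat5a, Stat5b and Stat6 and the SOCS-family inhibitors Socs1, Socs2, Socs3 and Cish were followed in mouse bone marrow cultures that carried a leukaemia fusion gene. All probe sets that the array annotation pairs with 1 of these 9 symbols alone were taken, which gave 23 probe sets of the 45101 on the array. The 9 genes stand among 18193 genes with a probe set of their own. A filter on low signals kept 22 of the 23 probe sets, with at least 1 for each of the 9 genes. The probe set left out was Socs2 1441476_at, which read 0.390 to 15.6 over the 12 arrays. Socs2 1438470_at stood above the filter's level on 4 arrays only, 2 of them from control cultures.

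Expression was measured with an Affymetrix mouse array in 4 groups of 3 arrays. The donors were F1 mice of the cross (C57Bl/6Ly-Pep3b x C3H/HeJ), and the marrow had been exposed to 5-fluorouracil, a drug that kills dividing cells. The cells of all 4 groups, control included, carried NUP98-HOXD13 (ND13) from either the ND13-GFP or the ND13pac retrovirus, and grew for 4 weeks in liquid culture. The medium held 15% fetal bovine serum, 100 ng/ml stem cell factor and 6 ng/ml interleukin-3 of the mouse, and 10 ng/ml human interleukin-6. The virus with the gene under study then entered over 2 days on irradiated E86 producer cells. It carried the vector MIY with yellow fluorescent protein (MIY-ctrl, called control below), full-length MEIS1 (MEIS1-WT), MEIS1 lacking its homeodomain (MEIS1-deltaHD) or M33-MEIS1, a construct that the labels name without describing it. The sorted cells were read in bulk. How the sort was gated, when RNA was taken and which ND13 virus a culture had remain not given in the sources used here.

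Cytokine receptors of this class have no enzyme activity of their own and work through JAK kinases bound to their tails. A ligand brings the kinases together, the kinases phosphorylate the receptor, and STAT proteins dock there, are phosphorylated, pair up and enter the nucleus to switch on genes. Many STATs bind the palindromic GAS element, while STAT2 works in a complex with IRF9 that binds the interferon-stimulated response element (ISRE). SOCS proteins and CISH are made in response to the same signals and shut the receptors off, which closes a feedback loop. In bone marrow the interleukin-3 and interleukin-6 in such media act through this pathway, chiefly by STAT5 and STAT3.

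The promoters of the members were searched for the letters of these elements, and stretches are shown for the members with a match. RefSeq's promoter table (GRCm38.p6), which spans 250 bases before to 50 bases after each start, had an entry for 8 of the 9 genes, with Socs2 not among them. The ISRE core was searched as GAAA and GAAA with any 2 bases between them and the GAS element as TTCNNNGAA, each on both strands. The ISRE core was in 3.44% of the 32851 promoters of the table, and the GAS letters were in 8.3%. Among the 8 members, 2 held the ISRE core (Stat2 and Socs1), 2 held GAS letters (Socs3 and Cish) and 4 held neither in these windows. The sequences below run 5′ to 3′ on the strand of the gene, and capitals mark the matched letters. The Stat2 stretch is the 250 bases before its start, chr10:128270248-128270497 on the plus strand, with the match on the opposite strand 222 to 213 bases before the start. The Socs3 stretch is chr11:117969367-117969616 on the minus strand, with its match 154 to 146 bases before the start. Cish is shown from 5 bases before its start, at chr9:107296654-107296683 on the plus strand, where GAS letters occur at bases 1 to 9 and again at bases 12 to 20. Socs1 is shown at chr16:10785599-10785624 on the minus strand, where 2 ISRE cores overlap between 83 and 68 bases before the start. A match describes letters and is not a measured binding site.
Stat2: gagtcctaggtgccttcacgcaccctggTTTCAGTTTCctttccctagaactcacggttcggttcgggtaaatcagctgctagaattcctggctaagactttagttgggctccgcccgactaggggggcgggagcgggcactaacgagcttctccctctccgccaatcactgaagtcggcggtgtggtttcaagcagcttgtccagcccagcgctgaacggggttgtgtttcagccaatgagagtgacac
Socs3: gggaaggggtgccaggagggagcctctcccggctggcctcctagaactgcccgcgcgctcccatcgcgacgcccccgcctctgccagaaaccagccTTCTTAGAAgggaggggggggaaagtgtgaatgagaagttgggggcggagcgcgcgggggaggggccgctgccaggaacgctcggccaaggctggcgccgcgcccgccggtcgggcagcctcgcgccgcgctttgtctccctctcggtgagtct
Cish: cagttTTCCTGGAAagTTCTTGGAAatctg
Socs1: tgccgGAAAGAGAAACCGAAAgcggg

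Values are the authors' array signals on a linear scale, with every array scaled to the same trimmed mean of 100, and differences are on the log2(signal + 16) scale, which understates the change of dim probe sets. A difference passed at an adjusted p below 0.05, adjusted over all 31726 probe sets kept. The signals of different probe sets depend on their probes and were not set against each other, except that those of each marker list are summed below. Such a sum weighs its brightest probe sets most and is no measure of cell numbers. Medians of the signal per array were 17.4 to 21.6 for control and 13.1 to 16 for the constructs. The median log2 difference of all probe sets from control was -0.10 in MEIS1-WT, -0.14 in MEIS1-deltaHD and -0.12 in M33-MEIS1, and scaling every array to a common median raised these by 0.23, 0.31 and 0.22. The brightest Meis1 probe set of the array, 1450992_a_at, read 187 ± 18.4 in control and 141 ± 10.4, 110 ± 9.96 and 117 ± 14.6 (SD, n = 3) in the arrays labelled MEIS1-WT, MEIS1-deltaHD and M33-MEIS1, lower and not higher. Where its probes lie relative to the MEIS1 of the viruses was left not given in the sources used here: groups are named as labelled and the introduced MEIS1 was not checked. The blood cell markers Ptprc, Spn, Cd53 and Laptm5 all stood above the filter's level on all 12 arrays. In such bulk samples fewer cells of a type and less RNA per cell cannot be told apart.

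Against control, the members that passed were lower with each construct on the authors' scaling. With MEIS1-WT 11 of the 22 probe sets were lower, from 6 genes, beside 17.8% of all probe sets lower and 31% changed in either direction. With MEIS1-deltaHD 10 were lower, from 5 genes, beside 20.8% lower and 34.5% changed. With M33-MEIS1 12 were lower, from 7 genes, beside 17.1% lower and 28.9% changed. In limma's fit 0 members passed as higher, beside 13.1%, 13.8% and 11.8% of all probe sets, and at an unadjusted p under 0.05 the counts of higher members were 0, 1 and 0 in the same order. The split depends on the scaling: with arrays scaled to a common median, 6 members were lower and 1 higher with MEIS1-WT, 6 lower and 5 higher with MEIS1-deltaHD, and 5 lower and 0 higher with M33-MEIS1, where the member medians were -0.18, 0.01 and -0.02 beside 0.12, 0.17 and 0.11 for all probe sets. The 5 higher ones were Stat5a 1450259_a_at, Stat5b 1422102_a_at and Socs2 1449109_at, 1418507_s_at and 1446085_at, and the 1 with MEIS1-WT was Stat5a 1450259_a_at. Each of these comparisons uses the same 3 control arrays, so they are not independent of each other. The arrays of a construct all lay below the control arrays in 16, 12 and 14 member probe sets, beside 25.2%, 29.8% and 24.3% of all probe sets, and all above them in 0, 1 and 0 (with MEIS1-deltaHD 17.1% of all probe sets). The median log2 difference over the 22 probe sets was -0.46, -0.40 and -0.36.

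**Figure D1:**
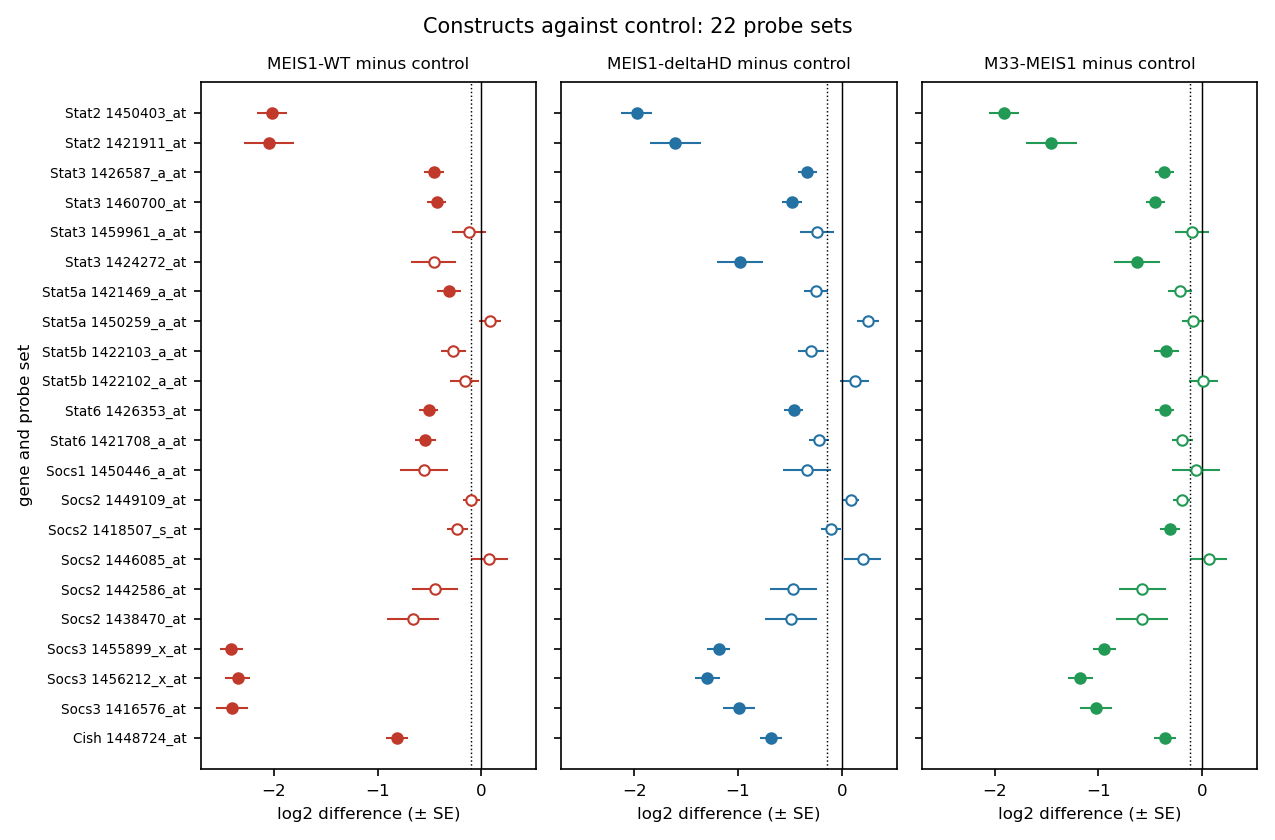
Log2 difference of each of the 22 probe sets (rows) from control under MEIS1-WT, MEIS1-deltaHD and M33-MEIS1 (panels), on the log2(signal + 16) scale. Points are differences and bars are SE, filled where the adjusted p is below 0.05, the solid line is 0 and the dotted line is the median of all probe sets. The Stat2 and Socs3 rows lie farthest to the left, and the 3 Socs3 rows lie farther left with MEIS1-WT than with the other constructs.

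Stat2, the STAT that carries type I interferon signals together with IRF9, had the largest differences of the 5 STAT genes. Its brighter probe set 1450403_at read 150, 180 and 227 on the control arrays. It read 34.8, 32.9 and 32.0 in MEIS1-WT, 35.6, 30.5 and 37.9 in MEIS1-deltaHD, and 35.0, 33.8 and 42.7 in M33-MEIS1. The 9 construct arrays all lay below the lowest control array, and the construct groups overlapped each other. The mean signal was 5.58 times lower with MEIS1-WT, 5.35 times with MEIS1-deltaHD and 4.99 times with M33-MEIS1. The log2 differences from control were -2.02 ± 0.15 (SE, adjusted p = 2.31e-10), -1.98 (adjusted p = 3.86e-10) and -1.91 (adjusted p = 1.06e-09). Between constructs no difference passed: MEIS1-WT minus MEIS1-deltaHD was -0.04 with a 95% interval of -0.34 to 0.27, M33-MEIS1 minus MEIS1-deltaHD was 0.07 (-0.24 to 0.37) and M33-MEIS1 minus MEIS1-WT was 0.11 (-0.20 to 0.41).

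The dimmer Stat2 probe set 1421911_at read 70.1, 75.8 and 98.7 in control. With the constructs its 9 readings lay between 1.24 and 28, a range that includes the level used by the filter (8.21 to 14.8 on the 12 arrays), so the size of the ratio is uncertain. The difference passed with MEIS1-WT (-2.05 ± 0.24, adjusted p = 5.77e-07), for MEIS1-deltaHD (-1.61, adjusted p = 1.56e-05) and likewise for M33-MEIS1 (-1.45, adjusted p = 7.25e-05). Both probe sets of Stat2 thus stood apart from control in the same direction. Among constructs this probe set read 0.59 higher with M33-MEIS1 than with MEIS1-WT, which did not pass (interval 0.09 to 1.10, adjusted p = 0.201), but it did when replicate 3 of MEIS1-WT was left out (0.94, adjusted p = 0.0140).

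Genes activated by the STAT2 complex, listed with earlier results of these data known, were lower as a group. All 21 measured genes of 24 listed passed as lower with each construct, beside 20.2%, 23.7% and 19.3% of all 14005 genes lower, and 16.1%, 16.7% and 15.1% higher, under MEIS1-WT, MEIS1-deltaHD and M33-MEIS1. Their median log2 difference was -3.35, -3.38 and -2.92, beside -0.10, -0.14 and -0.10 for all genes, and all 21 were also lower under both other scalings tried. The filter asks for 3 arrays, so a gene read in control alone is kept and lower is then its only open direction. Mx2, named after its values were seen, is such a gene, with 70.5 ± 7.28 in control. With the constructs it read 1.79, 1.45 and 1.65, under the filter's level. How many of the 21 entered in this way was not counted. Irf9, the DNA-binding partner of STAT2, is named here after its values were seen: it read 294 ± 26.1 in control and 44.1 ± 3.88, 42.9 ± 5.45 and 60.1 ± 7.61 (SD, n = 3) under MEIS1-WT, MEIS1-deltaHD and M33-MEIS1, with log2 differences of -2.37, -2.40 and -2.03. The largest differences with MEIS1-WT were those of Rtp4, a chaperone-like interferon-induced gene, Usp18, a protease that dampens interferon signalling, and Rsad2, an antiviral enzyme. Rtp4 fell from 1534 ± 204 to 25.6 ± 6.55 in MEIS1-WT, 15.4 ± 4.09 in MEIS1-deltaHD and 37.9 ± 9.22 in M33-MEIS1. Usp18 fell from 1213 ± 257 to 22.9 ± 8.62, 18.6 ± 3.05 and 36.9 ± 6.09. Rsad2 fell from 1144 ± 404 to 26.7 ± 3.85, 18.7 ± 7.87 and 35.7 ± 14.1. Between M33-MEIS1 and MEIS1-deltaHD, 1 of the 21 passed, and it was Rtp4, higher with M33-MEIS1 by 0.77 (adjusted p = 0.0141), beside 0.628% of all genes. This call was lost under median scaling. On the authors' scaling 3 of the 21 were higher with M33-MEIS1 than with MEIS1-WT, beside 4.67% of all genes. They were Oas1a, Ifih1 and Dhx58, named after their values were seen, and both other scalings gave the same 3. The ISRE core occurred in the promoters of 9 of the 18 listed genes that had an entry, 50%, beside 3.99% of all 27025 genes with an entry. GAS letters occurred in 4 of the 18, 22.2%, beside 9.55% of all genes. The genes were listed as targets of the complex that binds the ISRE, so the share with its core is no test of these data.

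Of the ligands, the interferon gene Ifnb1, named although it did not pass, was dim. It read 21.2 ± 9.53 in control and 13.2 ± 7.88, 10.8 ± 3.03 and 15.5 ± 7.57 under MEIS1-WT, MEIS1-deltaHD and M33-MEIS1, and none of its differences passed (adjusted p = 0.289, 0.151 and 0.496). The type I interferon receptor chain Ifnar2, named after its values were seen, read 609 ± 47.7 in control and 264 ± 19.1, 360 ± 41.7 and 336 ± 19.9 for these constructs in that order. It differed between MEIS1-WT and MEIS1-deltaHD by -0.42 (adjusted p = 0.00727). Median scaling ended its call against control with MEIS1-deltaHD. Ifnar1, the other chain of this receptor and also named after its values were seen, gave -0.50 with MEIS1-WT (adjusted p = 6.83e-04). It did not pass with MEIS1-deltaHD (-0.17, adjusted p = 0.212) or M33-MEIS1 (-0.01, adjusted p = 0.958). Under median scaling Ifnar1 passed against control with no construct.

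**Figure D2:**
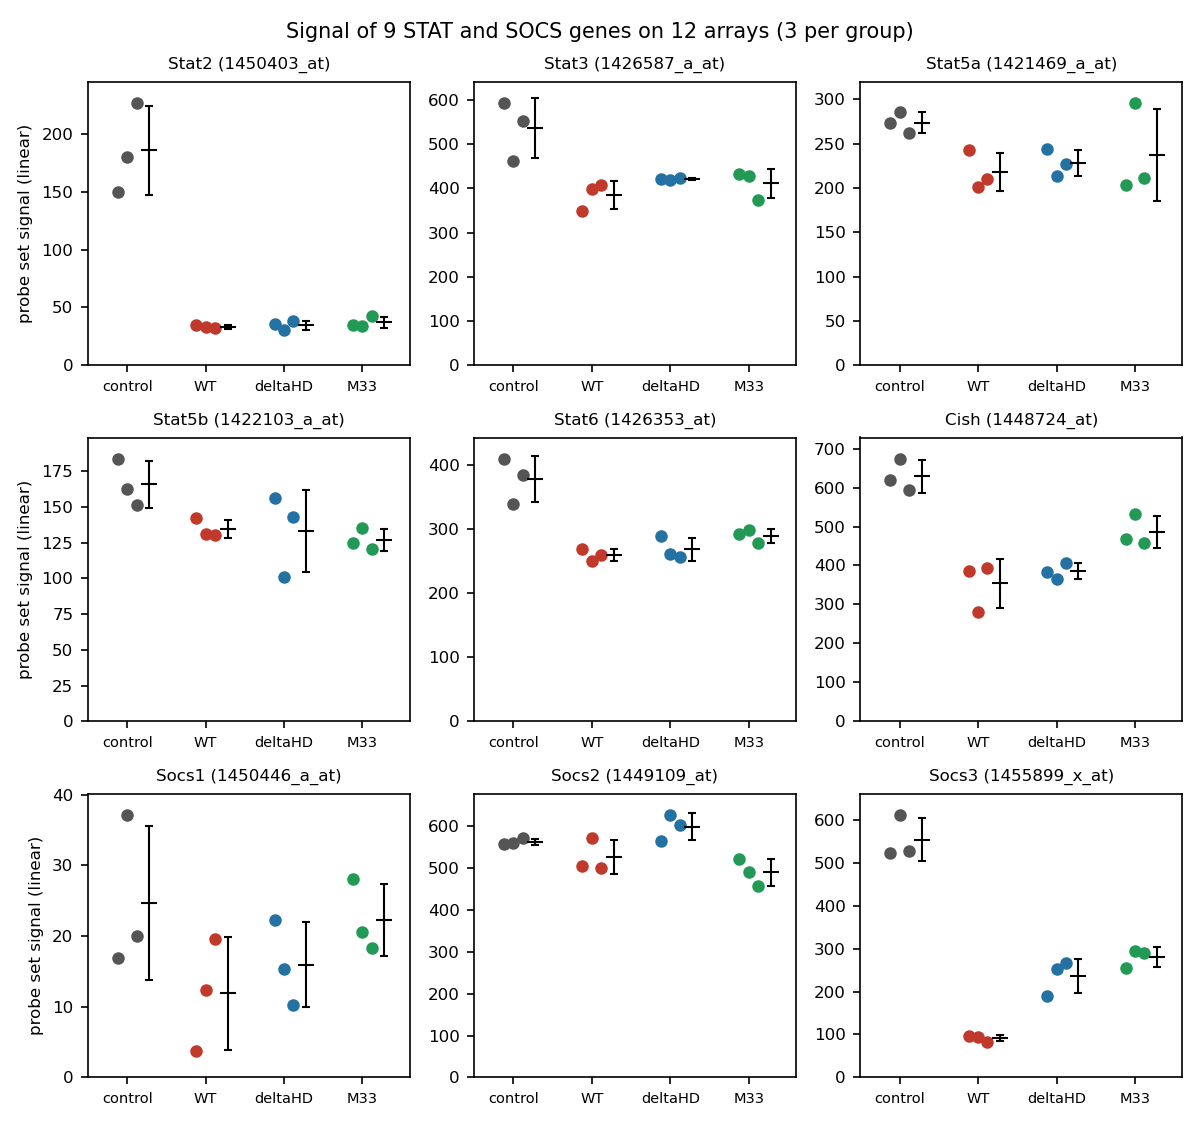
Signal of the brightest probe set of each of the 9 genes (panels) on each of the 12 arrays, on a linear axis from 0 that differs between panels. Coloured points are arrays, and black marks are group means with SD (n = 3). Stat2 is at 150 to 227 in control and at 30.5 to 42.7 with the constructs, and Socs3 is at 82.9 to 96.1 with MEIS1-WT.

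Socs3, the inhibitor that docks on the shared interleukin-6 receptor subunit and switches off STAT3 activation, was the member whose probe sets all differed between MEIS1-WT and each of the other constructs. Probe set 1455899_x_at read 522, 612 and 528 in control, 96.1, 94.4 and 82.9 in MEIS1-WT, 190, 253 and 266 in MEIS1-deltaHD, and 254, 296 and 291 in M33-MEIS1. The MEIS1-WT arrays lay below all others, the control arrays lay above all others, and the MEIS1-deltaHD and M33-MEIS1 arrays overlapped. The mean fell 6.08 times with MEIS1-WT, 2.35 times with MEIS1-deltaHD and 1.98 times with M33-MEIS1. The differences from control were -2.41 ± 0.11 (SE, adjusted p = 7.40e-14), -1.19 (adjusted p = 1.73e-08) and -0.94 (adjusted p = 7.83e-07).

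The other Socs3 probe sets gave the same order of groups for control and MEIS1-WT. Probe set 1456212_x_at read 343 ± 37.6 in control, 54.5 ± 7.98 in MEIS1-WT, 130 ± 15.2 in MEIS1-deltaHD and 143 ± 13.9 in M33-MEIS1, with differences of -2.35, -1.30 and -1.18. Probe set 1416576_at read 255 ± 36.8, 35.5 ± 8.52, 120 ± 13.9 and 119 ± 30.6 in the same order, with differences of -2.40, -0.99 and -1.02. Names ending in x_at mark probe sets whose probes can match other transcripts, and 1416576_at carries no such mark. All 9 of these differences from control passed, and they kept their call under every alternative tried.

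Between the constructs, 3 member probe sets were lower with MEIS1-WT than with MEIS1-deltaHD, all of Socs3, beside 4.53% of all probe sets changed and 2.42% lower. The differences were -1.22 ± 0.11 (1455899_x_at, adjusted p = 9.37e-08), -1.05 ± 0.12 (1456212_x_at, adjusted p = 2.53e-06) and -1.41 ± 0.15 (1416576_at, adjusted p = 1.22e-06). Against M33-MEIS1, 5 member probe sets were higher with M33-MEIS1 than with MEIS1-WT, beside 5.54% changed and 3.36% higher: the 3 of Socs3, Cish, and Stat6 1421708_a_at. The Socs3 differences were 1.47, 1.17 and 1.38. Both comparisons use the same MEIS1-WT arrays. M33-MEIS1 and MEIS1-deltaHD did not differ detectably in any member: limma called 0 of 22, beside 0.492% of all probe sets, and at an unadjusted p under 0.05 there were 3 lower and 2 higher. For Socs3 the intervals of M33-MEIS1 minus MEIS1-deltaHD were 0.01 to 0.47, -0.13 to 0.37 and -0.35 to 0.28.

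**Figure D3:**
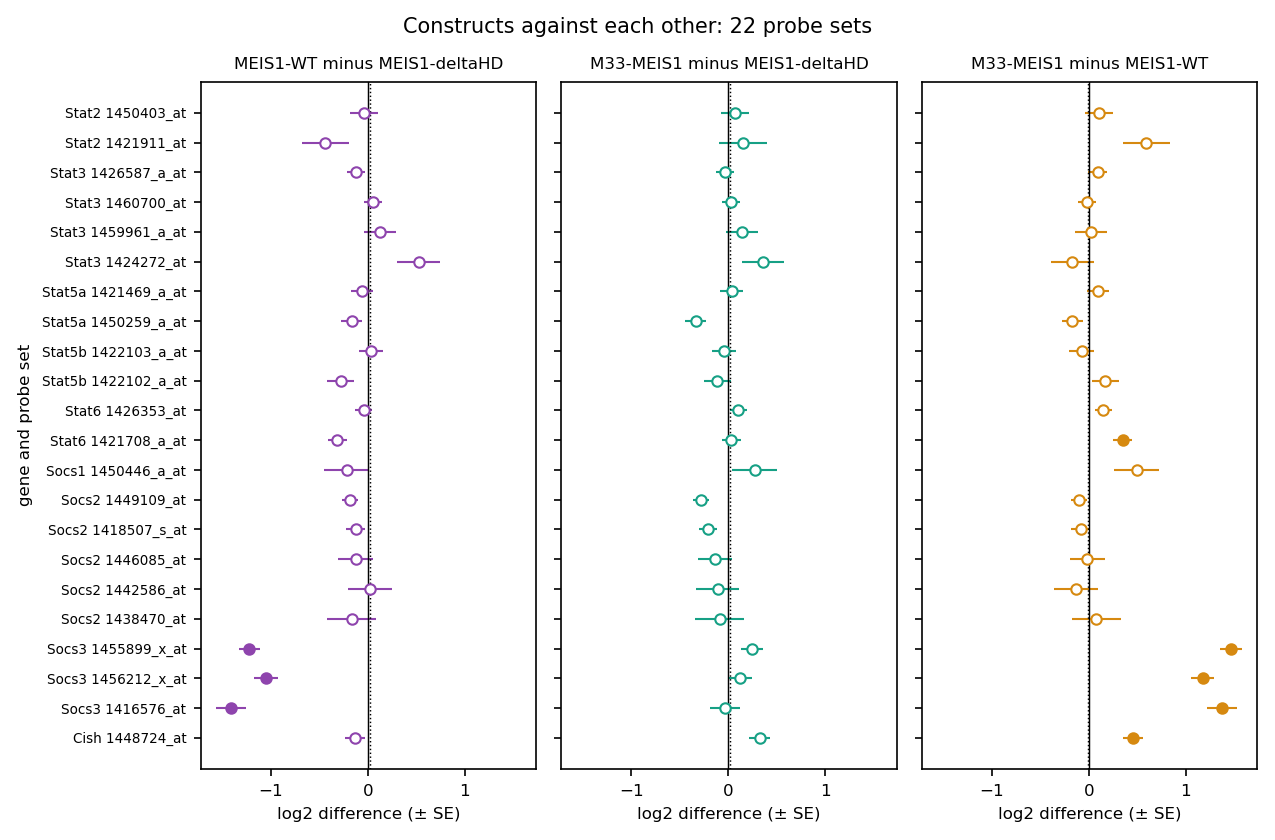
Log2 difference of each of the 22 probe sets (rows) for the 3 pairs of constructs (panels), on the log2(signal + 16) scale. Points are differences and bars are SE, filled where the adjusted p is below 0.05, the solid line is 0 and the dotted line is the median of all probe sets. The 3 Socs3 rows stand at -1.05 to -1.41 in MEIS1-WT minus MEIS1-deltaHD and at 1.17 to 1.47 in M33-MEIS1 minus MEIS1-WT.

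Markers of monocytes and macrophages, like Socs3, were highest in control and lowest with MEIS1-WT. Of 7 such markers 3 passed as higher with M33-MEIS1 than with MEIS1-deltaHD, beside 0.628% of all genes, and the others did not pass there. The means of the 3 Socs3 probe sets were 280, 143 and 119 with M33-MEIS1 and 236, 130 and 120 with MEIS1-deltaHD, and none of these differences passed. Whether Socs3 and the markers differ in this comparison was not tested. Of all genes, 20.2%, 23.7% and 19.3% were lower under MEIS1-WT, MEIS1-deltaHD and M33-MEIS1, and 16.1%, 16.7% and 15.1% were higher. These shares stand beside each marker count against control below. All 7 of 7 monocyte and macrophage markers (Lyz2, Csf1r, Mpeg1, Cd68, Adgre1, Ctss and Cd14) passed as lower with each construct. Their summed signal ranged over 11480 to 12810 in control, 495 to 641 with MEIS1-WT, 2182 to 2358 with MEIS1-deltaHD and 3407 to 3899 with M33-MEIS1, and 0 of the 7 were at 0 in any group. The summed signal of 8 neutrophil markers ranged over 11537 to 13290, 6576 to 7061, 11484 to 12230 and 12369 to 14665 in the same order, with Ltf below the filter's level on all control arrays. This sum hides opposite changes: 5 of the 8 were lower with MEIS1-WT, while 4 were higher and 1 lower with MEIS1-deltaHD, and 5 higher and 1 lower with M33-MEIS1. Among them, named after their values were seen, Mmp8 gave -4.28, -3.01 and -1.95, and Ngp gave -0.50, 1.38 and 1.72. The sum of 6 mast cell and basophil markers ranged over 2521 to 3373, 1793 to 1879, 2121 to 2219 and 3733 to 4054, with 4, 3 and 1 lower and 1, 2 and 3 higher. The part of cell makeup in the values of Socs3, Stat2 and the other members was not tested. The 4 progenitor markers summed to 3230 to 3644 in control and to 3887 to 4135, 3457 to 3613 and 3182 to 3551 with the constructs. With MEIS1-WT 3 of them were higher (Kit, Cd34 and Flt3), while with MEIS1-deltaHD and with M33-MEIS1 Cd34 was higher and Kit and Flt3 were lower. The 5 megakaryocyte markers summed to 895 to 1066, 1475 to 2161, 599 to 799 and 1086 to 1536 in the order of the groups. Under MEIS1-WT, MEIS1-deltaHD and M33-MEIS1, 1, 0 and 1 of the 5 were higher and 0, 2 and 1 were lower. Much of the sum is Pf4, which read 1395 ± 314 with MEIS1-WT and alone passed as higher there (1.36). Itga2b gave -0.05, -0.76 and -0.30 and passed as lower with MEIS1-deltaHD and M33-MEIS1. The 5 dendritic cell markers, which include Flt3, summed to 161 to 227, 332 to 401, 114 to 143 and 97.4 to 142. Most of this sum is Flt3, counted among the progenitor markers too, which read 331 ± 35.5 with MEIS1-WT. Of the 3 that the filter kept, 1, 0 and 0 were higher and 0, 2 and 1 lower with the constructs. With MEIS1-WT the higher marker was Flt3, while Itgax (-0.39) and Zbtb46 (-0.42) did not pass. Markers of B cells, T and NK cells, erythroid cells, eosinophils and fibroblasts summed to at most 75.6 in any array.

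Cish, the first-described relative of the SOCS proteins and a product of STAT5 signalling, fell less. It has 1 probe set, which read 619, 674 and 593 in control, 386, 282 and 394 in MEIS1-WT, 385, 365 and 406 in MEIS1-deltaHD, and 468, 532 and 457 in M33-MEIS1. All construct arrays lay below the control arrays, and the M33-MEIS1 arrays lay above those of the other constructs. The differences from control were -0.81 ± 0.10 (adjusted p = 1.67e-06) with MEIS1-WT, -0.68 (adjusted p = 1.68e-05) in MEIS1-deltaHD and -0.36 (adjusted p = 0.0110) for M33-MEIS1. Scaling each array to a common median ended the call with MEIS1-deltaHD (-0.19, adjusted p = 0.291) and also with M33-MEIS1 (-0.01, adjusted p = 0.968), and the call with M33-MEIS1 was also lost without the intensity trend (adjusted p = 0.0620). Cish was 0.45 ± 0.10 higher with M33-MEIS1 than with MEIS1-WT (adjusted p = 0.00848), a call lost without replicate 2 of MEIS1-WT (0.30, adjusted p = 0.0937) or replicate 2 of M33-MEIS1 (0.39, adjusted p = 0.0619), under median scaling (adjusted p = 0.0524) and without the intensity trend (adjusted p = 0.0916). M33-MEIS1 minus MEIS1-deltaHD was 0.32 (interval 0.10 to 0.54), which did not pass (adjusted p = 0.237).

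Socs2, an inhibitor best known for limiting growth hormone signals through STAT5, passed in 1 of its 5 kept probe sets and in 1 comparison. Its brightest probe set 1449109_at read 563 ± 7.07 in control, 526 ± 40.7 in MEIS1-WT, 599 ± 32.0 in MEIS1-deltaHD and 490 ± 32.3 in M33-MEIS1, and no difference passed. Its intervals against control were -0.27 to 0.07, -0.08 to 0.25 and -0.36 to -0.03. With MEIS1-deltaHD it passed as higher under median scaling (0.58), and with M33-MEIS1 as lower under quantile normalization (-0.27). Probe set 1418507_s_at, with 421 ± 37.3 in control and 337 ± 41.8 with M33-MEIS1, passed there (-0.31 ± 0.10, adjusted p = 0.0170) but not without replicate 3 of control (-0.24, adjusted p = 0.0852) or of M33-MEIS1 (-0.22, adjusted p = 0.107) or without the intensity trend (adjusted p = 0.0674), and its direction reversed under median scaling (0.033). With MEIS1-WT (-0.23, adjusted p = 0.0747) it passed without replicate 3 of M33-MEIS1 (adjusted p = 0.0495) and under quantile normalization (-0.28, adjusted p = 0.0341), and with MEIS1-deltaHD it was higher under median scaling (0.38, adjusted p = 0.0282). The remaining Socs2 probe sets were dim, with readings of 0.409 to 49.3, and did not pass in any of the 6 comparisons. Of these, 1438470_at passed as lower with MEIS1-WT (-0.66, adjusted p = 0.0520) when any 1 of 4 arrays was left out, replicate 3 of control, 2 of MEIS1-WT, 2 of MEIS1-deltaHD or 1 of M33-MEIS1 (adjusted p = 0.0225 to 0.0499), without the filter (adjusted p = 0.0498) and with an added constant of 64 (adjusted p = 0.0410), and with M33-MEIS1 without replicate 3 of control or 1 of M33-MEIS1 (adjusted p = 0.0405 and 0.0484). Likewise 1442586_at passed as lower with M33-MEIS1 (-0.58, adjusted p = 0.0582) without replicate 1 or 3 of control or 3 of M33-MEIS1 (adjusted p = 0.0249 to 0.0451), and 1446085_at passed as higher with MEIS1-deltaHD under median scaling (0.55, adjusted p = 0.0150).

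Socs1, the inhibitor of JAK kinases downstream of interferon receptors, was read by 1 dim probe set. It read 16.9, 37.2 and 20.0 in control, 3.69, 12.4 and 19.6 in MEIS1-WT, 22.2, 15.3 and 10.3 in MEIS1-deltaHD, and 28.1, 20.5 and 18.4 in M33-MEIS1. The groups overlapped. With MEIS1-WT the difference was -0.55 with an interval of -1.04 to -0.07 (adjusted p = 0.0753), and it passed when replicate 3 of MEIS1-WT was left out (-0.75, adjusted p = 0.0279). With MEIS1-deltaHD and M33-MEIS1 the intervals were -0.81 to 0.15 and -0.54 to 0.42.

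Stat3, the main carrier of interleukin-6 signals, was moderately lower. Its brightest probe set 1426587_a_at read 594, 463 and 552 in control, 350, 399 and 409 in MEIS1-WT, 422, 418 and 423 in MEIS1-deltaHD, and 433, 428 and 374 in M33-MEIS1. No construct array reached the lowest control array. The differences were -0.46 ± 0.09 (adjusted p = 5.70e-04), -0.33 (adjusted p = 0.00795) and -0.36 (adjusted p = 0.00489). Probe set 1460700_at gave -0.43, -0.48 and -0.45, all of which passed. Under median scaling neither of these probe sets passed with any construct, and 1426587_a_at reversed with MEIS1-deltaHD (0.16). The call of 1426587_a_at with MEIS1-deltaHD was also lost without replicate 1 of control (-0.26, adjusted p = 0.0627).

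The dimmer Stat3 probe sets disagreed in part. Probe set 1424272_at read 28.7, 42.1 and 29.99 in control and 2.28 to 25.3 with the constructs, and it passed with MEIS1-deltaHD (-0.98, adjusted p = 0.00108) and M33-MEIS1 (-0.63, adjusted p = 0.0336) but not with MEIS1-WT (-0.46, adjusted p = 0.119). That call with M33-MEIS1 was lost without replicate 2 of control (-0.51, adjusted p = 0.143), and without replicate 1 (-0.60, adjusted p = 0.0843) or 2 (-0.47, adjusted p = 0.164) of M33-MEIS1, and also with an added constant of 1, without the filter and under both other scalings. Probe set 1459961_a_at read 44.1 to 46.0 in control and 28.9 to 50.3 with the constructs, and none of its differences passed.

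Stat6, which carries interleukin-4 and interleukin-13 signals, was lower by a like amount. Probe set 1426353_at read 409, 339 and 383 in control, 269, 250 and 260 in MEIS1-WT, 289, 261 and 255 in MEIS1-deltaHD, and 292, 299 and 277 in M33-MEIS1. Every construct array lay below every control array. The differences were -0.51 ± 0.09 (adjusted p = 9.71e-05), -0.47 (adjusted p = 2.49e-04) and -0.36 (adjusted p = 0.00358), and under median scaling none of them passed and the one with MEIS1-deltaHD reversed (0.017). Probe set 1421708_a_at read 194 ± 6.76 in control, 128 ± 7.21 in MEIS1-WT, 164 ± 15.4 in MEIS1-deltaHD and 168 ± 9.38 in M33-MEIS1. Against control it differed past the threshold with MEIS1-WT alone (-0.54, adjusted p = 1.61e-04), a call lost under median scaling (-0.20, adjusted p = 0.299). It was 0.35 higher with M33-MEIS1 than with MEIS1-WT (adjusted p = 0.0381), a call lost when any 1 of 5 arrays was left out, which were replicates 1 and 2 of MEIS1-WT and replicates 1, 2 and 3 of M33-MEIS1 (adjusted p = 0.0506 to 0.140), and also lost under quantile normalization (adjusted p = 0.0522), median scaling (adjusted p = 0.223) and without the intensity trend (adjusted p = 0.0786). MEIS1-WT minus MEIS1-deltaHD was -0.32 (interval -0.52 to -0.11, adjusted p = 0.0731), so whether the arrays labelled MEIS1-WT stand apart from MEIS1-deltaHD was not settled for this probe set.

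Stat5a and Stat5b, the closely related carriers of interleukin-3 signals, each passed in 1 of 2 probe sets and in 1 comparison. Stat5a 1421469_a_at read 273, 286 and 263 in control, 243, 202 and 210 in MEIS1-WT, 244, 214 and 227 in MEIS1-deltaHD, and 203, 297 and 211 in M33-MEIS1. Replicate 2 of M33-MEIS1 lay above all control arrays, and the other construct arrays lay below them. The difference passed with MEIS1-WT alone (-0.31 ± 0.11, adjusted p = 0.0423). That call was lost when any 1 of 6 arrays was left out, the 3 control arrays, replicates 2 and 3 of MEIS1-WT and replicate 3 of MEIS1-deltaHD (adjusted p = 0.0508 to 0.154), without the filter (adjusted p = 0.0659) and without the intensity trend (adjusted p = 0.112), and its direction reversed under median scaling (0.033). The difference with MEIS1-deltaHD, -0.25, passed without replicate 2 of M33-MEIS1 (adjusted p = 0.0491). With M33-MEIS1 the difference of -0.22 did not pass (adjusted p = 0.176), but did without replicate 2 of M33-MEIS1 (-0.38, adjusted p = 0.0118). Stat5a 1450259_a_at read 121 ± 8.29 in control, 129 ± 5.33 in MEIS1-WT, 148 ± 13.1 in MEIS1-deltaHD and 113 ± 9.89 in M33-MEIS1, and no difference passed. With MEIS1-deltaHD it was 0.25 higher (interval 0.03 to 0.47, adjusted p = 0.0729), opposite in sign to the -0.25 of 1421469_a_at, and it passed as higher under quantile normalization (0.35) and median scaling (0.70). With MEIS1-WT it also passed as higher under median scaling (0.40, adjusted p = 0.0277).

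Stat5b 1422103_a_at read 184, 162 and 151 in control, 142, 131 and 130 in MEIS1-WT, 156, 101 and 143 in MEIS1-deltaHD, and 125, 135 and 121 in M33-MEIS1. It passed with M33-MEIS1 alone (-0.34 ± 0.12, adjusted p = 0.0410), and the call was lost when any 1 of 5 arrays was left out, replicates 1 and 2 of control and replicates 1, 2 and 3 of M33-MEIS1 (adjusted p = 0.0524 to 0.168). It was also lost under median scaling (-0.02, adjusted p = 0.949), under quantile normalization (adjusted p = 0.114), without the filter (adjusted p = 0.0624) and without the intensity trend (adjusted p = 0.0900). The differences with MEIS1-WT (-0.27, interval -0.53 to -0.01) and MEIS1-deltaHD (-0.30, interval -0.56 to -0.04) were of like size and did not pass, and without replicate 1 of MEIS1-deltaHD the latter did (-0.41, adjusted p = 0.0249). The dimmer Stat5b 1422102_a_at, at 54.2 ± 1.87 in control, did not pass in any comparison on the authors' scaling, but was higher with MEIS1-deltaHD under median scaling (0.51, adjusted p = 0.00983).

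Upstream of the STATs stand the kinases and receptor chains. The lists were drawn up from general knowledge of the pathway but with earlier results of these data known. Genes were read from their brightest kept probe set. The share of all genes that passed as lower, 20.2%, 23.7% and 19.3% with the constructs in the usual order, stands beside each of the list counts that follow. Of the 4 JAK kinases, 3 passed as lower in MEIS1-WT, 4 in MEIS1-deltaHD and 3 in M33-MEIS1, counts that became 1, 0 and 0 under median scaling, where the list medians were -0.03, -0.04 and -0.03, so no direction is given for the kinases. Jak2, the kinase of the interleukin-3 receptor, read 397 ± 52.0 in control, 198 ± 8.24 in MEIS1-WT, 249 ± 9.55 in MEIS1-deltaHD and 295 ± 6.99 in M33-MEIS1. Its differences were -0.94 (adjusted p = 3.99e-08), -0.63 (adjusted p = 1.22e-05) and -0.40 (adjusted p = 0.00217), and it was 0.54 higher with M33-MEIS1 than with MEIS1-WT (adjusted p = 5.30e-04). Jak1, which serves many receptors of this class, gave -0.30, -0.33 and -0.18, the last of which did not pass (adjusted p = 0.0799). Tyk2, which serves the interferon receptor, gave -0.44, -0.39 and -0.33. Jak3, the partner of the common gamma chain, did not pass with MEIS1-WT (-0.28, adjusted p = 0.279) and gave -0.58 and -0.51 with the others. The call of Jak2 with MEIS1-WT was the only kinase call against control that median scaling left.

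Among 23 measured cytokine receptor chains of 28 listed, 16 passed as lower in MEIS1-WT, 13 in MEIS1-deltaHD and 9 in M33-MEIS1, with medians of -0.65, -0.59 and -0.34. Under median scaling 10, 6 and 5 were lower and 0, 2 and 1 were higher, with medians of -0.47, -0.22 and -0.05. Il6st, the signal-transducing subunit shared by the interleukin-6 family (gp130), read 124 ± 24.9 in control, 12.3 ± 3.83 in MEIS1-WT, 37.3 ± 8.02 in MEIS1-deltaHD and 55.0 ± 7.79 in M33-MEIS1. Its differences were -2.30, -1.39 and -0.97, and MEIS1-WT was lower than MEIS1-deltaHD (-0.91, adjusted p = 0.00107). The interleukin-6 binding chain Il6ra was dimmer, at 41.0 ± 10.9 in control and 18.6 ± 7.14 with MEIS1-WT, and passed with MEIS1-WT only (-0.72, adjusted p = 0.00638). Both other scalings ended that call.

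The shared signalling chain of the interleukin-3 receptor, Csf2rb, and the mouse interleukin-3 chain Csf2rb2 are close copies, so their probe sets may share signal. Csf2rb read 2224 ± 110 in control, 1151 ± 181 in MEIS1-WT, 1422 ± 30.4 in MEIS1-deltaHD and 1949 ± 140 in M33-MEIS1. Its differences were -0.95 (adjusted p = 1.11e-08), -0.64 (adjusted p = 4.36e-06) and -0.19, the last not passing (adjusted p = 0.114). Csf2rb2 gave -1.47, -0.88 and -0.34, all of which passed. Both were higher with M33-MEIS1 than with MEIS1-deltaHD, by 0.45 (adjusted p = 0.0144) and 0.54 (adjusted p = 0.00458). Median scaling ended both calls, and those against control of Csf2rb with MEIS1-deltaHD and of Csf2rb2 with M33-MEIS1. Il3ra, which binds interleukin-3, was dim (27.5 ± 12.2 in control) and did not pass with any construct. Il7r and Il13ra1, chains for interleukin-7 and interleukin-13, gave -1.82 and -1.60 with MEIS1-WT, -1.62 and -1.31 with MEIS1-deltaHD, and -1.30 and -0.95 with M33-MEIS1. Over the list, 7 of 23 were lower with MEIS1-WT than with MEIS1-deltaHD and 11 of 23 were higher with M33-MEIS1 than with MEIS1-WT, beside 3.18% and 4.67% of all genes in those directions.

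Of 7 measured ligands of 11 listed, 2 passed as lower with MEIS1-WT, Il6 and Lif, both activators of STAT3, and under both other scalings Il6 alone did. Under median scaling Il6 was higher with M33-MEIS1. Il6, the mouse gene and not the human protein in the medium, read 116 ± 49.4 in control, 48.6 ± 7.52 in MEIS1-WT, 82.8 ± 4.92 in MEIS1-deltaHD and 131 ± 17.4 in M33-MEIS1, with -0.97 for MEIS1-WT (adjusted p = 1.61e-04). Lif read 40.5 ± 21.7 in control and 16.9 ± 4.51 with MEIS1-WT (-0.72, adjusted p = 0.0136). With MEIS1-deltaHD and M33-MEIS1 limma called 0 of 7, and 1 and 0 were below an unadjusted p of 0.05.

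**Figure D4:**
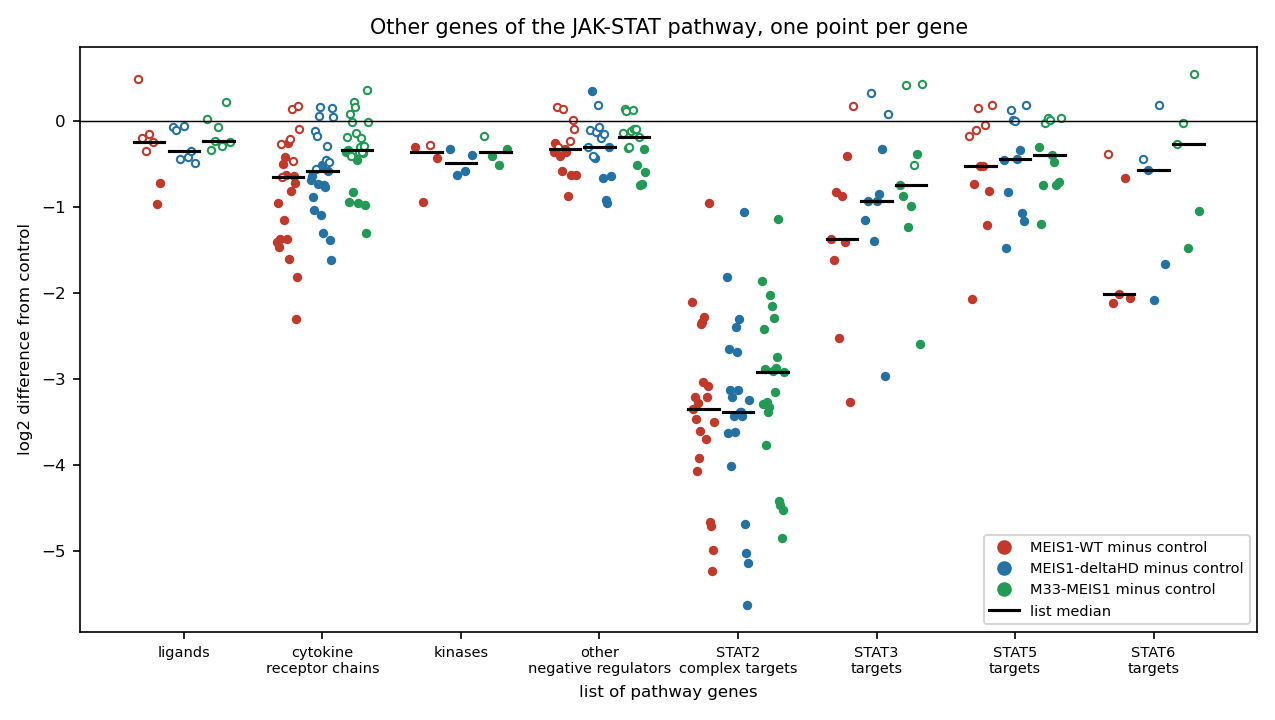
Log2 difference from control of the measured genes of 8 pathway lists (horizontal axis), with 1 point per gene, on the log2(signal + 16) scale. Colours are the constructs, points are filled where the adjusted p is below 0.05, and black bars are list medians. The STAT2 complex targets have medians of -3.35, -3.38 and -2.92, and the medians of the negative regulators lie between -0.33 and -0.19.

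Negative regulators other than the members were read as 15 of 15 listed. With MEIS1-WT 9 passed as lower, with MEIS1-deltaHD 6 were lower and 1 (Pias2, 0.34, named after its values were seen) was higher, and with M33-MEIS1 5 were lower, but under median scaling 1, 2 and 2 were lower and 3, 5 and 3 were higher, so no direction is given for this list. Ptprc, the CD45 phosphatase that acts on JAK kinases, read 2906 ± 298 in control, 1576 ± 60.7 in MEIS1-WT, 1823 ± 53.9 in MEIS1-deltaHD and 2025 ± 73.0 in M33-MEIS1. Socs7 gave -0.63, -0.65 and -0.60, and Socs4 gave -0.63, -0.92 and -0.75 in the same order, and each of these differences passed. Under median scaling Socs7 kept no call against control, Socs4 lost the one with MEIS1-WT, and Ptprc kept only the one with MEIS1-WT. Socs5 is named after its values were seen: it read 208 ± 39.1 in control, 209 ± 19.4 in MEIS1-WT, 98.4 ± 6.94 in MEIS1-deltaHD and 118 ± 16.2 in M33-MEIS1. It was 0.97 higher with MEIS1-WT than with MEIS1-deltaHD (adjusted p = 1.68e-05), the opposite direction to Socs3.

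Downstream, genes linked to STAT3 passed as lower in 8, 7 and 6 of 9 cases under MEIS1-WT, MEIS1-deltaHD and M33-MEIS1, with medians of -1.37, -0.93 and -0.74, and in 7, 6 and 4 cases under median scaling, where 0, 1 and 1 were higher. Saa3, an acute-phase protein, read 308 ± 56.1 in control and 17.6 ± 7.04, 25.2 ± 4.8 and 38 ± 12 with the constructs in that order. Fgl2, a secreted immune regulator, read 330 ± 53.5, 43.8 ± 4.01, 115 ± 10.8 and 129 ± 6.64. Cebpb, a myeloid transcription factor, read 1290 ± 77.2, 408 ± 24.1, 667 ± 46.2 and 699 ± 41.0. Both Fgl2 and Cebpb were lower with MEIS1-WT than with MEIS1-deltaHD, with differences of -1.13 (adjusted p = 8.19e-07) and -0.68 (adjusted p = 4.51e-06), with the same order of group means as the monocyte markers given above.

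Genes linked to STAT5 passed as lower in 6, 7 and 7 of 11 cases, but under median scaling 3, 3 and 3 were lower and 2, 4 and 4 were higher. Pim1, a survival kinase induced through STAT5, read 1018 ± 38.0 in control, 432 ± 38.6 in MEIS1-WT, 479 ± 24.8 in MEIS1-deltaHD and 613 ± 149 in M33-MEIS1, with differences of -1.21, -1.07 and -0.74. Its relative Pim2 gave -0.81, -1.16 and -0.72. Bcl6, which STAT5 is known to repress and not to activate, gave -2.07, -1.47 and -1.20. Of 5 measured genes linked to STAT6 among 11 listed, 4, 3 and 2 were lower, and under median scaling 3, 2 and 2 were lower and 0, 0 and 1 higher. The macrophage genes Chil3, Mrc1 and Tgm2 gave -2.11, -2.02 and -2.06 with MEIS1-WT, and Chil3 did not pass with M33-MEIS1 (-0.02, adjusted p = 0.946).

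The genes whose pattern lay nearest to each member were found among 14005 genes by the root mean square (RMS) difference of log2 values centred over the 12 arrays. Nearest to Stat2, whose own SD over the arrays was 0.86, were Tdrd7 (RMS 0.13), Gm9706 (0.14) and Gpt2 (0.14). Nearest to Socs3, with an SD of 0.87, were the macrophage marker Cd68 (0.18), Fgl2 (0.18) and Tpd52 (0.18). Cd68 read 395 in control, 69.9 in MEIS1-WT, 187 in MEIS1-deltaHD and 212 in M33-MEIS1, the order of the Socs3 means. Nearest to Cish, with an SD of 0.34, were Lcp2 (0.11), a signalling adaptor of blood cells, Gcnt1 (0.11) and Pga5 (0.12). For Stat6 (SD 0.21) they were Msn (0.06), Ints6l (0.06) and Rnf13 (0.07), and for Stat3 (SD 0.20) they were Ddb2 (0.06), Kmt2e (0.08) and Mau2 (0.08). For Stat5a (SD 0.18) the values of Gpam, Asxl2 and Zc3h12c were 0.09 to 0.10, and for Stat5b (SD 0.19) those of Cggbp1, Ube3b and Pi4k2a were 0.09 to 0.10. A gene with no change over the arrays would lie at the member's own SD. Nearer than that lay 7656 genes to Stat2 and 6926 to Socs3. This bound is far wider than the distances above, and how many genes lie near those distances was not counted.

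**Figure D5:**
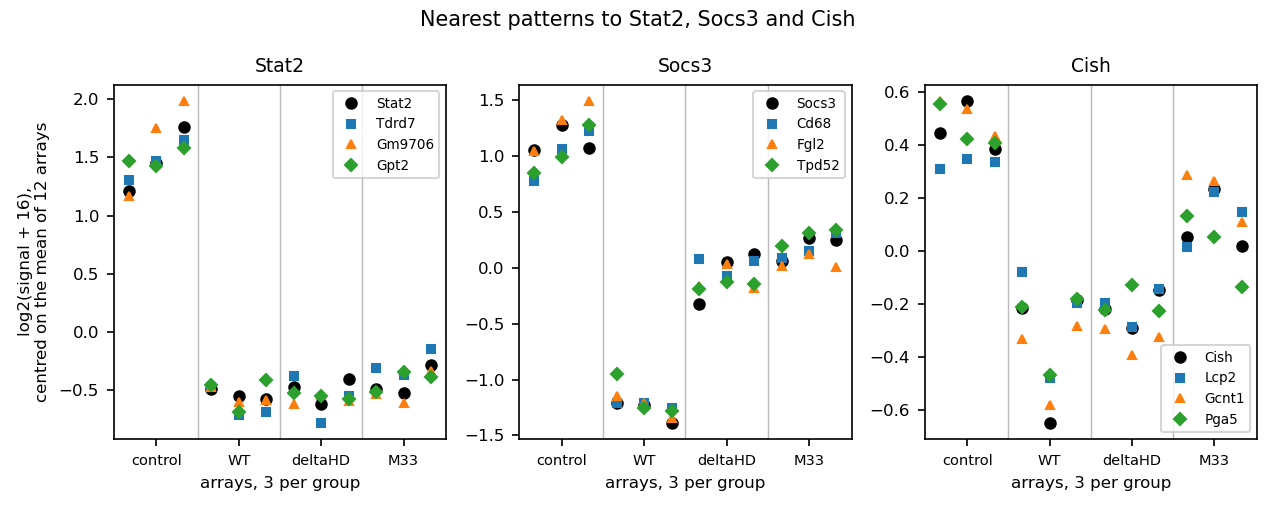
Log2(signal + 16) centred on the mean of the 12 arrays for Stat2, Socs3 and Cish (panels, black circles) and the 3 genes nearest to each (coloured markers). Each point is 1 array, with 3 per group in no particular order. Socs3 and its nearest genes are lowest with MEIS1-WT, while Stat2 and its nearest genes lie together in all 3 construct groups.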

How the data were processed

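The deposited values are array intensity, the signal of each probe set on a linear scale from the software GCOS 1.2, per the submitters' processing notes. The authors had scaled each array, since the mean after trimming 2% at each end was 100 on all 12 arrays. The settings of the software stay not given in the sources used here; detection calls were not used, and 0 value columns were left unused. Genes were named from the platform annotation: of 45101 probe sets, 64 array controls were left out, 34945 carried 1 symbol, 932 several and 9160 none.

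Signals were turned into log2(signal + 16). Probe sets stayed in when 3 or more of the 12 arrays read them above that array's 40th percentile, which left 31726 probe sets and 14005 genes, each read from its brightest kept probe set. Group means of all 4 groups were estimated together by limma 3.58.1 (R 4.3.3; functions lmFit, contrasts.fit and, with a trend on intensity, eBayes), leaving 8 residual degrees of freedom. The 6 comparisons have two-sided p-values with Benjamini-Hochberg adjustment over all kept probe sets. The fit was tested on simulated data. The labels speak of 3 independent experiments per condition, but nothing says what was separate, so p-values measure the spread between these samples, which may be technical, and the number of arrays limits the precision. Same-numbered arrays did not deviate together (correlations of -0.05 to 0.03, with 0 of 18 pairs over 0.1), so the main model has no replicate block.

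The members and gene lists were chosen with earlier results of these data known. The text names all member probe sets, up to 3 genes per list with the largest difference among those that passed with MEIS1-WT, the kinases and the receptor chains of the cytokines in the medium, the cell type markers, and the 3 genes nearest to each member whose brightest probe set passed in a comparison (not so for Socs1 and Socs2), and says where it names others. Alternatives changed the added constant, the filter, the scaling, the unit tested, the intensity trend, the replicate block and the arrays. Promoters are from RefSeq (GRCm38.p6). Figures were drawn with matplotlib 3.10.9.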

Additional observations from a re-analysis of the deposited data

How the results depend on the processing

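Over all members, comparisons and alternatives, 2562 values were recomputed: 2479 stayed on their side of the threshold, 52 lost their call, 26 gained one, and 5 were called in at least 1 of the fits compared and changed sign. Of the 2479, 79 that were called in neither fit changed sign, 24 of them under median scaling. Of the members called, 6 of 11, 6 of 10 and 5 of 12 against control (MEIS1-WT, MEIS1-deltaHD, M33-MEIS1), 3 of 3 for MEIS1-WT minus MEIS1-deltaHD and 3 of 5 for M33-MEIS1 minus MEIS1-WT kept their call under all alternatives. All 5 reversals of a call came with median scaling: Stat5a 1421469_a_at with MEIS1-WT (0.033), Stat3 1426587_a_at (0.16), Stat6 1426353_at (0.017) and Socs2 1418507_s_at (0.38, adjusted p = 0.0282) with MEIS1-deltaHD, and Socs2 1418507_s_at with M33-MEIS1 (0.033). Median scaling gave 7 members called with MEIS1-WT (6 lower, 1 higher), 11 with MEIS1-deltaHD (6 lower, 5 higher), 5 with M33-MEIS1 (all lower) and 3 for M33-MEIS1 minus MEIS1-WT, and raised the share of all calls that were higher from 42.4%, 39.8% and 40.8% to 79.1%, 84.3% and 81.9% against control (55.0%, 54.5% and 53.6% with quantile normalization). It moved that share from 46.6% to 23.5% for MEIS1-WT minus MEIS1-deltaHD and from 89.1% to 78.4% for M33-MEIS1 minus MEIS1-deltaHD. With 1 probe set per gene, which leaves 9 to count, 6, 5, 6, 1 and 2 were called in the order of the comparisons above. Without the intensity trend 3 members were called for M33-MEIS1 minus MEIS1-WT, and of all probe sets 795 were called for MEIS1-WT minus MEIS1-deltaHD (1436 with it), 37 for M33-MEIS1 minus MEIS1-deltaHD (156 with it) and 1167 for M33-MEIS1 minus MEIS1-WT (1759 with it). For M33-MEIS1 minus MEIS1-deltaHD no filter gave 83 and median scaling 74. The cause of these changes was not tested.

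Leaving out 1 array at a time gave 10 to 12, 9 to 11 and 10 to 13 members called against control and 3 to 6 for M33-MEIS1 minus MEIS1-WT, where 3 remained without replicate 2 of MEIS1-WT or of M33-MEIS1. Over all probe sets it gave 913 to 1638 for MEIS1-WT minus MEIS1-deltaHD and 62 to 185 for M33-MEIS1 minus MEIS1-deltaHD. With the replicate block 11, 10, 13, 3, 0 and 4 members were called in the 6 comparisons and 9652, 10783, 8996, 1363, 152 and 1654 of all probe sets. The block ended the call of Stat6 1421708_a_at for M33-MEIS1 minus MEIS1-WT (adjusted p = 0.0580) and gave one to Socs2 1442586_at with M33-MEIS1 (adjusted p = 0.0370). The numbers do not pair the arrays: 4 of 12 arrays correlated best with their own number. Dim probe sets (Socs1, most of Socs2) limit what can be read.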
